A study of Mus musculus with 8 samples.

Results

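The question was which genes of lung leukocytes answer silica differently in Rag1-/- mice treated to deplete natural killer cells. For each gene the silica effect in these mice was compared with the silica effect in wild-type mice, using 8 arrays in 4 groups of 2. In the RagKO silica group, Rag1-/- mice received weekly intranasal doses of 1 mg of crystalline silica in 25 µl of saline over 4 weeks. RagKO saline mice received 25 µl of saline on the same schedule. Both RagKO groups also received 300 µg of antibody against NK1.1 per injection, before and throughout the exposure, to deplete natural killer (NK) cells. WT silica and WT saline were wild-type C57Bl/6 mice with the same instillations and no antibody. All mice were 6 to 8 weeks old, and the labels name a strain only for the WT mice. Rag1 deletion, NK depletion and any difference in strain therefore cannot be told apart, and "RagKO" stands below for all of them together. Each array held RNA of interstitial leukocytes, the cells collected on a density gradient from digested lung, labelled against a common mouse reference RNA. Replicates are described as biological, with no word on whether animals were pooled.

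Rag1 is needed to assemble antigen receptor genes, and mice without it have no mature T or B cells. Inhaled crystalline silica is taken up by macrophages, is cleared poorly, and leads to lasting inflammation and scarring. Macrophages can take on an interferon-driven state, with antigen presentation and antimicrobial genes, or the alternatively activated state set by interleukin-4 and interleukin-13, with arginase, chitinase-like proteins and eosinophil-attracting chemokines. T cells, NK cells and innate lymphoid cells are sources of the cytokines that set these states.

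Levels below are log2 ratios of leukocyte RNA to reference RNA. A silica effect is silica minus saline on this scale. The response difference is the silica effect in RagKO less that in WT, so it is positive where silica raised a gene more, or lowered it less, in RagKO than in WT. A gene was called at a Benjamini-Hochberg adjusted p under 0.05 over all genes tested with limma. All 11597 genes with a value on every array entered, and the response difference was called for 2697 of them (23.3%), 1274 in the positive direction (11.0%) and 1423 in the negative direction (12.3%). Of these, 958 differed at least 2-fold. The gene just inside the threshold was Sart3, with a response difference of 0.64 (adjusted p = 0.04987), and the gene just outside was 9330188P03Rik, with -0.56 (adjusted p = 0.05008).

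Several features of the arrays bear on all that follows. The 2 RagKO silica arrays had opposite sex-linked transcripts: the female-specific Xist was at -2.71 and 2.22 by 1 of its 2 probes, and the Y-linked Eif2s3y at 2.42 and -2.22. The WT silica arrays also had less Eif2s3y (0.34 and 1.05) than the WT saline arrays (2.32 and 2.27). By the same probe they had more Xist (0.82 and 0.48, against -0.24 and -0.21 in WT saline). By the other Xist probe the WT groups overlapped (0.25 and -0.02, against 0.17 and -0.15). Of 359 X- or Y-linked genes, 96 were called (26.7%), near the 23.3% of all genes. Without RagKO silica array 1, 75.8% of the calls remained in the same direction, and without array 2, 79.8%. T cell markers (Cd3g, Cd5, Cd6 and Cd8a) had a mean of -1.08 and -1.15 in RagKO silica, -1.04 and -0.95 in RagKO saline, 1.84 and 1.96 in WT silica, and 1.88 and 1.97 in WT saline. B cell markers (Ms4a1 and Cd79b) were between -2.11 and -1.49 on the 4 RagKO arrays and between 2.98 and 3.83 on the 4 WT arrays. NK markers (Klrb1c, Klrk1, Klrd1 and Gzma) were at 2.60 and 2.09 in RagKO silica and 2.85 and 2.94 in RagKO saline, against 4.50 and 4.39 in WT silica and 3.70 and 3.74 in WT saline. Their mean was thus lower in RagKO than in WT, but stayed above the reference RNA on all 4 RagKO arrays. General leukocyte markers (Ptprc, Cd52, Laptm5 and Coro1a) were higher after silica in RagKO, at 2.59 and 2.45 against 2.33 and 1.99 in RagKO saline. They were lower after silica in WT, at 3.44 and 3.38 against 3.97 and 3.95 in WT saline. Epithelial markers (Epcam, Cdh1, Krt18 and Sftpc) moved the opposite way, at 1.59 and 1.57 in RagKO silica, 1.98 and 2.02 in RagKO saline, 1.10 and 1.18 in WT silica, and 0.59 and 0.73 in WT saline. A probe for 28S ribosomal RNA (Rn28s1) was lower after silica in both genotypes, at 0.86 and 0.59 in RagKO silica, 2.43 and 2.08 in RagKO saline, 2.17 and 2.45 in WT silica, and 3.67 and 3.71 in WT saline. The part of these shifts in the results was not tested, and in such bulk samples fewer cells of a type and less RNA per cell cannot be told apart.

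**Figure D1:**
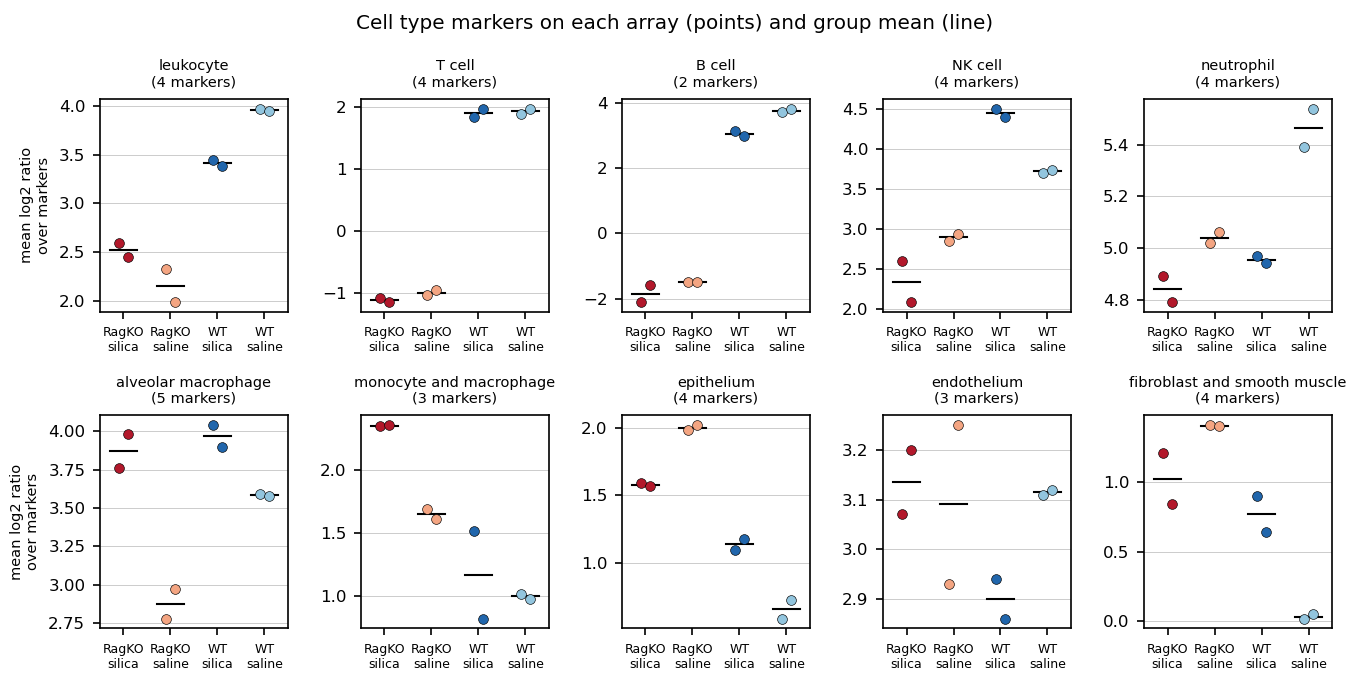
Mean log2 ratio to reference RNA over the markers of each cell type (vertical axis) on each array (points, 2 per group) with the group mean (line). T and B cell markers were low on all 4 RagKO arrays, while leukocyte markers were higher after silica in RagKO and lower after silica in WT, with epithelial and fibroblast markers moving the other way in both genotypes.

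The silica effects in RagKO and in WT were nearly unrelated across genes, with a Pearson r of 0.07 and a Spearman rho of 0.11 over 11597 genes, which are not independent replicates. Silica effects were called for 3795 genes in RagKO (32.7%) and 2283 in WT (19.7%). The RagKO count was 2393 without RagKO silica array 1 and 2380 without RagKO saline array 1, and the WT count was 1130 without WT silica array 2, and 940 and 861 without WT saline array 1 and array 2. Of the 1012 genes called in both, 473 (46.7%) went in opposite directions and also had a called response difference. These reversed genes fell into 141 that rose in RagKO and fell in WT, and 332 that fell in RagKO and rose in WT. For all 473, the silica and saline arrays did not overlap in either genotype. These genes were chosen by calls on the same arrays, so this separation largely follows from the choice and is no separate support. Over all genes, such separation occurred for 8.65% in the first direction and 10.5% in the second. Responses in RagKO only, with a WT effect that was not called and under 0.5 in size, numbered 714 genes rising and 561 falling. Responses in WT only numbered 370 rising and 262 falling. A further 74 called genes moved in the same direction in both genotypes, 49 of them further in RagKO and 25 further in WT, and 243 met none of these rules.

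The class counts depended on single arrays. The genes that rose in RagKO and fell in WT numbered 57 without WT silica array 2, 45 without WT saline array 1 and 44 without WT saline array 2, and those that fell in RagKO and rose in WT 205, 167 and 162 without the same arrays. RagKO only rising genes numbered 454 and 443 without WT saline array 1 and array 2, and RagKO only falling genes 323 without RagKO silica array 1, 353 without RagKO saline array 1, and 333 and 320 without WT saline array 1 and array 2. WT only rising genes numbered 194 without WT silica array 2, and 196 and 184 without WT saline array 1 and array 2. WT only falling genes numbered 130, 115 and 114 without these 3 arrays. Genes called in the response difference numbered 759 positive and 890 negative without WT saline array 1, and 755 and 892 without array 2.

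**Figure D2:**
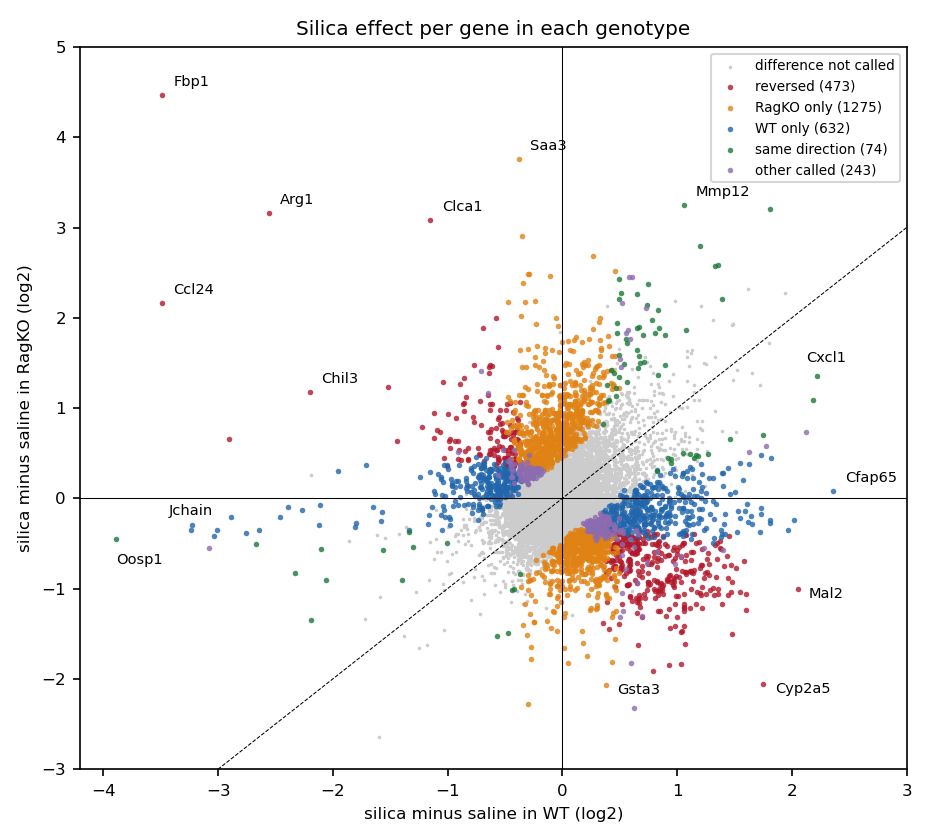
Each point is a gene, with the silica effect in RagKO (vertical axis, log2) against that in WT (horizontal axis, log2), coloured by response class, and the dashed line marks equal effects. Reversed genes fill the upper left (141) and lower right (332), and Fbp1, Arg1, Ccl24 and Clca1 lie farthest to the upper left.

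Most of the called genes also differed between the genotypes in one or both exposures. Among all genes tested, a genotype difference was called for 66.2% after saline and for 60.1% after silica. The difference between RagKO and WT was called after saline but not after silica for 861 genes (31.9% of those called), after silica but not after saline for 461 (17.1%), in both with opposite signs for 262 (9.7%), and in both with the same sign for 1097 (40.7%). The first of these counts was 559 and 570 without WT saline array 1 and array 2, and the last was 604 and 590. The second was 271 without WT silica array 2 and 302 without WT saline array 2, and the count with opposite signs was 173 without WT silica array 2. These comparisons use the same arrays as the response difference and are given as a description. The response difference equals the genotype difference after silica less that after saline, so a called genotype difference largely follows from it. Among the 473 reversed genes, the genotype difference was lost after silica for 169 and changed its sign for 100. For 101 reversed genes (21.4%) RagKO silica lay within 0.5 of WT saline and WT silica lay within 0.5 of RagKO saline. This held for 34.6% of all genes, so it was not more common among the reversed genes.

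The gene lists here and below were chosen with earlier results of these data known, so their shares are descriptions and no separate support. In the alternative activation list 14 of 18 genes rose and 0 fell with silica in RagKO (16.8% and 15.9% of all genes did). In WT 3 rose and 9 fell (11.5% and 8.21% of all genes did). In the response difference, 14 members were called positive (77.8%, against 11.0% of all genes) and 0 negative, with a median response difference of 1.24, while the median over all genes was near 0. The count was 14 without RagKO silica array 1 and 13 without array 2. The median silica effect was 1.18 in RagKO and -0.32 in WT. By class, 8 members rose in RagKO and fell in WT, 4 rose in RagKO only, 1 (Mrc1) fell in WT only, and 1 (Egr2) rose further in RagKO. Fbp1, which encodes the gluconeogenic enzyme fructose-1,6-bisphosphatase, had the largest response difference of all genes. Its log2 ratio was 3.56 and 5.02 in RagKO silica, -0.19 and -0.18 in RagKO saline, 0.37 and 0.97 in WT silica, and 4.20 and 4.13 in WT saline. The RagKO silica and WT saline arrays were high and the other 4 low, with no overlap between silica and saline in either genotype. Silica raised Fbp1 22.1-fold in RagKO and lowered it 11.3-fold in WT, a response difference of 7.96 ± 0.52 (SE, adjusted p = 4.42e-05).

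Arg1, the arginine-degrading enzyme used as a hallmark of alternative activation, was at 3.75 and 5.01 in RagKO silica, 1.06 and 1.38 in RagKO saline, 1.08 and 0.65 in WT silica, and 3.41 and 3.45 in WT saline. It rose 8.93-fold in RagKO and fell 5.91-fold in WT (response difference 5.72 ± 0.45, SE, adjusted p = 8.01e-05). Ccl24, a chemokine for eosinophils, was at -0.75 and 1.53 in RagKO silica, -1.80 and -1.75 in RagKO saline, -2.49 and -1.67 in WT silica, and 1.40 and 1.41 in WT saline. Its RagKO silica arrays stood 2.28 apart, so its response difference was 6.79 without RagKO silica array 1 and 4.51 without array 2, against 5.65 ± 0.78 with both (SE, adjusted p = 0.000869). For Fbp1 these values were 8.69 and 7.23, and for Arg1 6.35 and 5.09. In all 3 genes the higher RagKO silica array was array 2, the one with Xist.

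Chil3 and Chil4 encode chitinase-like proteins secreted by lung macrophages. Chil3 was at 7.50 and 7.80 in RagKO silica, 6.31 and 6.62 in RagKO saline, 5.82 and 6.24 in WT silica, and 8.27 and 8.21 in WT saline, so that it rose 2.27-fold in RagKO and fell 4.61-fold in WT (response difference 3.39 ± 0.24, SE, adjusted p = 6.47e-05). Chil4 went the same way, with a response difference of 2.75 ± 0.17 (SE). The near-identical sequences of such paralogs may share signal between probes. Clca1, a secreted protein of mucus-producing goblet cells, was at 5.31 and 5.37 in RagKO silica, 2.35 and 2.16 in RagKO saline, 2.95 and 3.05 in WT silica, and 4.19 and 4.11 in WT saline. Its arrays agreed closely within every group, and its response difference of 4.23 ± 0.16 had an adjusted p of 1.23e-06. Ccl8, a chemokine for monocytes and T helper 2 cells, changed mainly in WT, where it fell 7.54-fold, with 2.91 and 2.20 in WT silica against 5.49 and 5.45 in WT saline. In RagKO it was at 2.14 and 2.56 after silica and 1.54 and 1.85 after saline, a 1.57-fold rise that passed the test (adjusted p = 0.0441). Retnla, which encodes a resistin-like protein, and Clec10a, a galactose-binding lectin, were the other reversed members, with response differences of 1.16 for Retnla and 1.81 for Clec10a. Both were named after their values were seen.

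Egr2, a transcription factor of alternative activation, rose in both genotypes, 3.56-fold in RagKO and 1.40-fold in WT (response difference 1.35 ± 0.15, SE, adjusted p = 0.000313). Its levels were 1.74 and 1.84 in RagKO silica, -0.11 and 0.03 in RagKO saline, 2.07 and 2.07 in WT silica, and 1.61 and 1.57 in WT saline. Outside the list, Inhba, which encodes the activin A subunit, responded in RagKO only. It was at 3.03 and 3.21 in RagKO silica, 0.15 and 0.25 in RagKO saline, 0.85 and 0.16 in WT silica, and 0.79 and 0.91 in WT saline, a 7.54-fold rise in RagKO (response difference 3.26 ± 0.27, SE). Ms4a7, a membrane protein of macrophages, was reversed, with a 3.71-fold rise in RagKO and a 1.61-fold fall in WT. Fn1, the gene of fibronectin, was not called (response difference 0.41, adjusted p = 0.16).

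**Figure D3:**
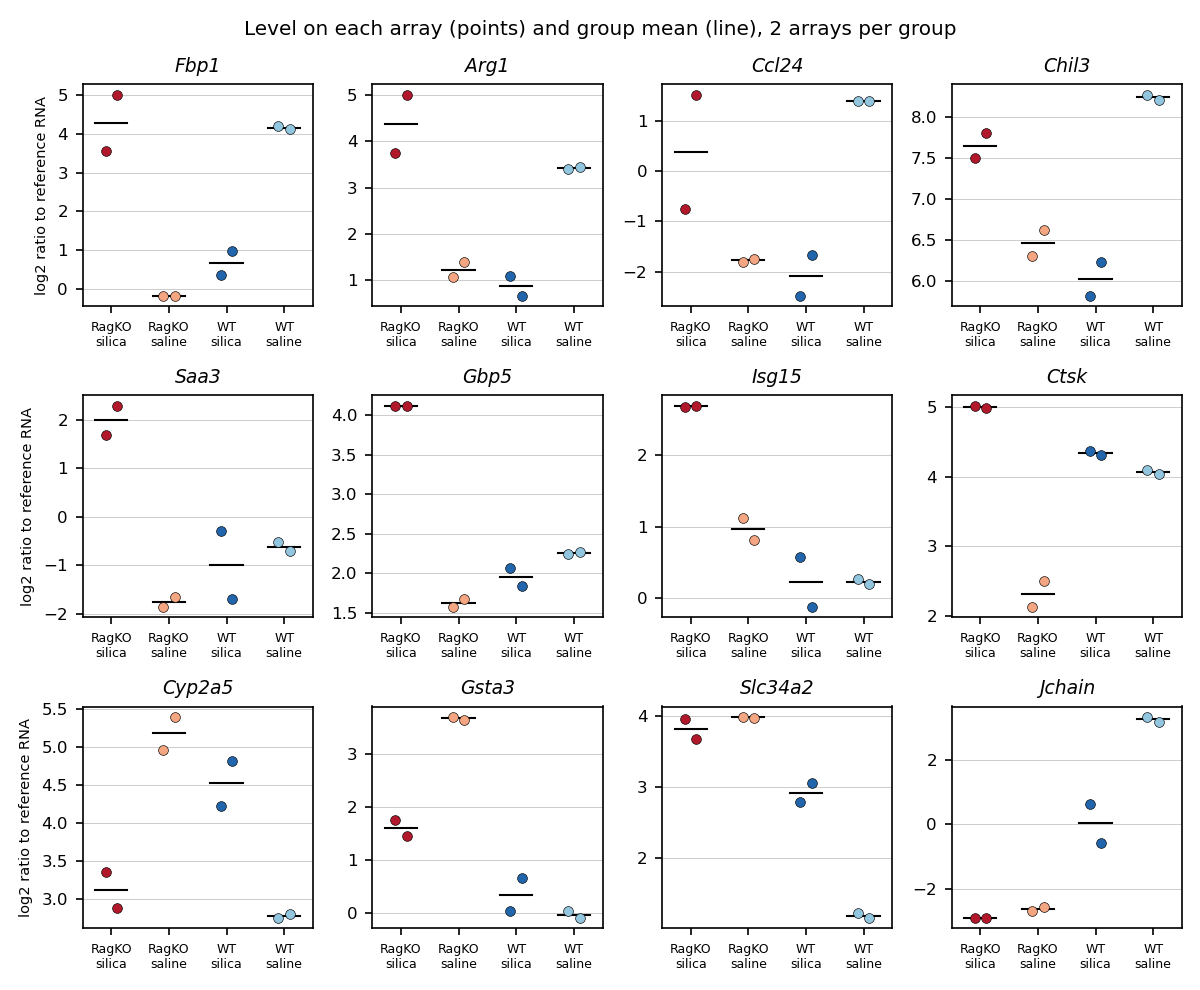
Log2 ratio to reference RNA (vertical axis) of 12 genes on each array (points, 2 per group) with the group mean (line). Fbp1, Arg1, Ccl24 and Chil3 were high in RagKO silica and WT saline, Saa3, Gbp5 and Isg15 rose in RagKO alone, Cyp2a5 fell in RagKO and rose in WT, and Jchain fell in WT alone.

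Of 27 measured interferon-stimulated genes, 26 rose with silica in RagKO (16.8% of all genes did) and 11 rose in WT (11.5% of all genes did). The median silica effect was 1.75 in RagKO and 0.50 in WT. In the response difference 20 were called positive (74.1%, against 11.0% of all genes) and 0 negative. The count was 13 without RagKO saline array 1 and 13 without WT saline array 2, and 15 and 21 without RagKO silica array 1 and array 2. Isg15, a ubiquitin-like modifier, was at 2.68 and 2.70 in RagKO silica, 1.12 and 0.81 in RagKO saline, 0.58 and -0.13 in WT silica, and 0.26 and 0.19 in WT saline. It rose 3.31-fold in RagKO, while the WT arrays overlapped (response difference 1.73 ± 0.28, SE, adjusted p = 0.00209). Bst2, which tethers budding virus to the cell, was at 0.45 and 0.76 in RagKO silica, -1.37 and -1.00 in RagKO saline, -1.23 and -1.68 in WT silica, and -1.69 and -1.46 in WT saline, a 3.47-fold rise in RagKO only. Usp18, which removes Isg15 from proteins and dampens interferon signalling, rose 3.35-fold in RagKO only, and Zbp1, a sensor of nucleic acids, 4.50-fold in RagKO only. Zbp1 had a mean of -0.06 in RagKO saline against 2.15 in WT saline. After silica the means were 2.11 in RagKO and 1.82 in WT, a genotype difference that was not called. Rtp4 rose in both, 5.16-fold in RagKO and 1.69-fold in WT (response difference 1.61 ± 0.28, SE, adjusted p = 0.00285).

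The second interferon list holds genes known mainly as interferon-gamma responses and defences within the cell. Of 21 measured members, 16 were called positive (76.2%, against 11.0% of all genes) and 1 negative (4.8%, against 12.3%). The median silica effect was 1.03 in RagKO and -0.12 in WT. In RagKO 19 rose and 0 fell (16.8% and 15.9% of all genes did), and in WT 2 rose and 3 fell (11.5% and 8.21%). Gbp5, a guanylate-binding GTPase that attacks pathogen vacuoles and promotes inflammasome assembly, was at 4.11 and 4.12 in RagKO silica, 1.57 and 1.68 in RagKO saline, 2.07 and 1.84 in WT silica, and 2.24 and 2.27 in WT saline. The RagKO silica arrays stood above all 6 others, which spanned 1.57 to 2.27. Silica raised it 5.62-fold in RagKO (response difference 2.79 ± 0.16, SE, adjusted p = 2.97e-05). Irgm1, an immunity-related GTPase, was at 1.56 and 1.38 in RagKO silica, 0.01 and -0.14 in RagKO saline, -0.80 and -1.05 in WT silica, and -1.10 and -1.18 in WT saline. It rose 2.89-fold in RagKO and had a response difference of 1.32 ± 0.18 (SE). Gbp2 had a response difference of 1.16 ± 0.15 and Irf8, a transcription factor of monocytes and dendritic cells, 1.40 ± 0.27 (SE). Psmb8, a subunit of the immunoproteasome, was reversed, with a 2.06-fold rise in RagKO and a 1.55-fold fall in WT. H2-Q8, a class I histocompatibility gene outside both lists, rose 5.26-fold in RagKO only. Its mean was 1.09 in RagKO saline against 3.74 in WT saline, and 3.49 in RagKO silica against 3.40 in WT silica.

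The exception was the cytokine itself. Ifng was at 2.68 and 1.74 in RagKO silica, 2.36 and 2.36 in RagKO saline, 3.90 and 4.26 in WT silica, and 3.18 and 3.12 in WT saline. The RagKO silica and saline arrays overlapped, and Ifng rose 1.90-fold in WT only. Its response difference of -1.08 ± 0.35 was near the threshold (adjusted p = 0.0485) and was not called without RagKO silica array 2 (-0.61, adjusted p = 0.0711), nor in 7 other alternatives, at adjusted p up to 0.143. Il18r1, a subunit of the interleukin-18 receptor, which drives interferon-gamma release by NK and T cells, was at 3.56 and 3.34 in RagKO silica, 4.35 and 4.67 in RagKO saline, 5.14 and 5.06 in WT silica, and 4.21 and 4.23 in WT saline. It fell 2.09-fold in RagKO and rose 1.84-fold in WT (response difference -1.94 ± 0.19, SE, adjusted p = 0.000168).

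Promoters are shown for 4 interferon-induced genes whose response differed and for Rsad2, an antiviral enzyme for which no difference was called. Irgm1 and Rsad2 were chosen after their values were seen. Each is the 250 bases before the RefSeq start of the gene on assembly GRCm38.p6, read 5′ to 3′ on the gene's strand, with matches to the interferon-stimulated response element (ISRE, searched as GAAA, any 2 bases and GAAA on either strand) in capitals. They lie at chr4:156200819-156201068 (Isg15, minus strand), chr8:71537473-71537722 (Bst2, minus), chr11:48871421-48871670 (Irgm1, minus), chr3:142496684-142496933 (Gbp5, plus) and chr12:26456453-26456702 (Rsad2, minus).
Isg15: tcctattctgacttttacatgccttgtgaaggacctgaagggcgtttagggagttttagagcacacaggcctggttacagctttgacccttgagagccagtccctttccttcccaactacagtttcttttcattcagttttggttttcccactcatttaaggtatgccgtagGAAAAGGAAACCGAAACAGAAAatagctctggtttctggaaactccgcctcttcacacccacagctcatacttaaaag
Bst2: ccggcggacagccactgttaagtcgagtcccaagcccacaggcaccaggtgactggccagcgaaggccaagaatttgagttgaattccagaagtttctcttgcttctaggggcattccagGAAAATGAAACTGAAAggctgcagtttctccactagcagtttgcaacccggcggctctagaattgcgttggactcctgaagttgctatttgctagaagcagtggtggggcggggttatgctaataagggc
Irgm1: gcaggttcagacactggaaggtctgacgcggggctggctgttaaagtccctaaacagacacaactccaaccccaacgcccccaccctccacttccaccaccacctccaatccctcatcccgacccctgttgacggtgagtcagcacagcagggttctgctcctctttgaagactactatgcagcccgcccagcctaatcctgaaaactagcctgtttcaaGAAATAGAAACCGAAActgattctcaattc
Gbp5: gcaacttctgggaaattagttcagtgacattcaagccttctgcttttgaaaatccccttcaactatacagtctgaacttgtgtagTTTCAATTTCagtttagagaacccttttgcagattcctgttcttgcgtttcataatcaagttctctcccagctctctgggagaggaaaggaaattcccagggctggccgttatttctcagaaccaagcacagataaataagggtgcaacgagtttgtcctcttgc
Rsad2: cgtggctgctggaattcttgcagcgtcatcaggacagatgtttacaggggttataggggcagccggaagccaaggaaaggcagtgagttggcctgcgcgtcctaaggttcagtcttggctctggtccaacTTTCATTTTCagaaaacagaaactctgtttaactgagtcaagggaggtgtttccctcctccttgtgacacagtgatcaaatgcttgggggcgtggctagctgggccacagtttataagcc

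The Isg15 promoter held 3 overlapping matches that start 78, 72 and 66 bases before the gene, Bst2 and Irgm1 held 2 overlapping matches each, and Gbp5 and Rsad2 held 1 each. Promoters were at hand for 9347 of the genes tested (80.6%). The ISRE letters occurred in 3.28% of these, in 6.76% of the genes that rose in RagKO only and in 8.82% of the reversed genes that rose in RagKO. The letters occurred in 8 (19.0%) of 42 genes that moved in the same direction in both genotypes and further in RagKO. They occurred in 47.6% of 21 interferon-stimulated genes and in 8 of 16 interferon-gamma response genes with a promoter. The gamma-activated site (TTCNNNGAA, either strand) occurred in 43.8% of the 16 and in 7.30% of all genes tested. Of 28 called genes of both lists with a promoter, 13 held the ISRE letters, 9 the gamma-activated site, 5 of them both, and 11 neither. The 28 and the 9 include Ifng, the only member called in the negative direction (-1.08). A match is a description of the letters, and Rsad2 held one and rose in both genotypes, 1.84-fold in RagKO and 1.81-fold in WT (response difference 0.03 ± 0.24, SE, 95% interval -0.50 to 0.55). Further motifs were searched on both strands in the same way, and no statement rests on them. Among the genes tested, the E-box of the CLEAR element occurred in 0.588% of promoters, the M-box (TCATGTG) in 2.38%, the X-box in 0.546%, the unfolded protein response element (TGACGTG) in 2.71%, the antioxidant response element (TGACNNNGC) in 14.0%, the serum response element in 0.0214% and the STAT6 site (TTC, any 4 bases and GAA) in 5.70%.

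Genes of class II antigen presentation, which load peptides for CD4+ T cells, had 12 measured members. In RagKO 9 rose and 0 fell (16.8% and 15.9% of all genes did), and in WT 1 rose and 5 fell (11.5% and 8.21%). The response difference was called positive for 10 (83.3%, against 11.0% of all genes) and negative for 0. Ciita, the master regulator of class II transcription, was at 2.10 and 1.46 in RagKO silica, 0.83 and 0.85 in RagKO saline, 2.97 and 2.88 in WT silica, and 3.98 and 4.11 in WT saline. It rose 1.92-fold in RagKO and fell 2.17-fold in WT (response difference 2.06 ± 0.25, SE, adjusted p = 0.000506). H2-Ab1, a class II chain, was at 4.63 and 4.47 in RagKO silica, 3.44 and 3.69 in RagKO saline, 4.85 and 4.84 in WT silica, and 5.46 and 5.50 in WT saline, with a response difference of 1.62 ± 0.17 (SE). H2-DMa, which edits the bound peptides, was reversed too. Ctss, the protease that trims the class II invariant chain, rose 4.01-fold in RagKO only. After silica 4 of the 12 members were higher in RagKO than in WT (33.7% of all genes were, and 60.1% differed in either direction), and 7 were lower (26.4%). The dendritic cell marker Itgax moved with these genes, at 3.83 and 3.82 in RagKO silica, 3.02 and 3.18 in RagKO saline, 4.43 and 4.37 in WT silica, and 4.87 and 4.79 in WT saline, but its response difference of 1.15 was -0.07 (adjusted p = 0.947) when probes with missing values were kept. B cells also carry class II, and B cell markers were lower after silica in WT, at 3.15 and 2.98 against 3.71 and 3.83 in WT saline. Their part in the class II result was not tested.

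Of 27 lysosome genes, 19 rose and 0 fell in RagKO (16.8% and 15.9% of all genes did). In WT 3 rose and 1 fell (11.5% and 8.21% of all genes did), so the WT counts were near or below the background. Their response difference was called positive for 10 (37.0%, against 11.0% of all genes) and negative for 1 (3.7%, against 12.3%). Ctsk, the collagen-degrading cathepsin K, was at 5.02 and 4.99 in RagKO silica, 2.12 and 2.50 in RagKO saline, 4.36 and 4.31 in WT silica, and 4.10 and 4.03 in WT saline. It started lower in RagKO saline than in WT saline and ended higher in RagKO silica than in WT silica, with a 6.46-fold rise in RagKO (response difference 2.42 ± 0.19, SE, adjusted p = 8.01e-05). Gpnmb, a glycoprotein of lipid-laden and lysosome-stressed macrophages, was at 0.10 and 0.24 in RagKO silica, -2.37 and -2.20 in RagKO saline, -0.45 and -1.19 in WT silica, and -0.42 and -0.99 in WT saline, a 5.49-fold rise in RagKO only. Lipa, the lysosomal acid lipase, was reversed, 2.80-fold up in RagKO and 1.70-fold down in WT. Lgmn, an asparagine-specific protease, rose in both genotypes and further in RagKO.

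Of 18 receptors that take up particles, 7 were called positive (38.9%, against 11.0% of all genes) and 2 negative (11.1%, against 12.3%). Marco, which binds silica on alveolar macrophages, was at 6.38 and 6.39 in RagKO silica, 4.09 and 4.11 in RagKO saline, 7.07 and 7.08 in WT silica, and 6.57 and 6.56 in WT saline. It rose 4.86-fold in RagKO and 1.42-fold in WT (response difference 1.77 ± 0.14, SE, adjusted p = 8.01e-05). Msr1, the class A scavenger receptor, rose 2.39-fold in RagKO only, and Lgals3, the lectin galectin-3, 3.99-fold in RagKO only. Cd36, a receptor for oxidized lipid, was reversed the other way, at 3.07 and 3.31 in RagKO silica, 4.10 and 4.21 in RagKO saline, 2.02 and 2.39 in WT silica, and 1.45 and 1.47 in WT saline. Of 15 alveolar macrophage markers, 8 were called positive (53.3%) and 3 negative for the response difference. Car4, which is on both the alveolar macrophage and the endothelial list, rose 5.74-fold in RagKO only, and Pparg, which directs alveolar macrophage identity, 1.42-fold in RagKO only. The response difference of Pparg was not called without WT saline array 1. Fabp1, a fatty acid-binding protein and one of the markers, was reversed the other way, at 4.34 and 4.66 in RagKO silica, 5.21 and 5.71 in RagKO saline, 5.25 and 5.30 in WT silica, and 4.74 and 4.69 in WT saline (response difference -1.52 ± 0.24, SE, adjusted p = 0.00158). Siglecf, a sialic acid-binding receptor of alveolar macrophages, was not called (response difference 0.13, adjusted p = 0.718). The alveolar macrophage markers used as a check (Marco, Siglecf, Car4, Pparg and Fabp1) had a mean of 3.76 and 3.98 in RagKO silica against 2.78 and 2.97 in RagKO saline, and 4.04 and 3.90 in WT silica against 3.59 and 3.58 in WT saline. The part of this shift was not tested.

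Of 19 proteases and inhibitors, 10 were called positive (52.6%, against 11.0% of all genes) and 4 negative (21.1%, against 12.3%). Mmp12, the macrophage elastase, was at 3.95 and 4.07 in RagKO silica, 0.93 and 0.59 in RagKO saline, 2.28 and 1.71 in WT silica, and 0.77 and 1.10 in WT saline. The saline groups overlapped, and silica raised it 9.51-fold in RagKO and 2.08-fold in WT (response difference 2.19 ± 0.28, SE, adjusted p = 0.00057). Plau, the urokinase plasminogen activator, rose 3.06-fold in RagKO only, and Timp1, an inhibitor of matrix metalloproteinases, was reversed, up 2.20-fold in RagKO and down 1.57-fold in WT. Mmp3, a metalloproteinase of stromal cells, went the opposite way, with a response difference of -2.07 ± 0.21 (SE). Slpi, an inhibitor of neutrophil elastase, fell in WT only, with 1.22 and 1.01 in WT silica against 3.06 and 3.09 in WT saline, and 1.58 and 1.65 in RagKO silica against 1.16 and 1.47 in RagKO saline.

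Acute-phase and antimicrobial genes split. Of 16 measured, 4 were called positive (25.0%, against 11.0% of all genes) and 5 negative (31.2%, against 12.3%). Saa3, a serum amyloid A protein made by macrophages and epithelium, was at 1.69 and 2.30 in RagKO silica, -1.87 and -1.65 in RagKO saline, -0.29 and -1.69 in WT silica, and -0.52 and -0.71 in WT saline. It rose 13.6-fold in RagKO, while its WT silica arrays stood 1.40 apart on both sides of WT saline (response difference 4.14 ± 0.51, SE, adjusted p = 0.000506). Saa1 went the same way, with a 5.61-fold rise in RagKO only. Ltf, the iron-binding protein lactoferrin, was reversed downwards, at 2.97 and 3.19 in RagKO silica, 3.52 and 3.74 in RagKO saline, 3.48 and 3.24 in WT silica, and 1.95 and 2.04 in WT saline. Bpifa1, a secreted airway defence protein, fell 2.06-fold in RagKO and rose 2.25-fold in WT. Among complement genes, 4 of 14 were called positive and 4 negative (28.6% each, against 11.0% and 12.3% of all genes). C1qa and C1qb, chains of the complement initiator C1q that macrophages make, rose 2.88-fold and 3.12-fold in RagKO only, and C1qc was reversed.

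**Figure D4:**
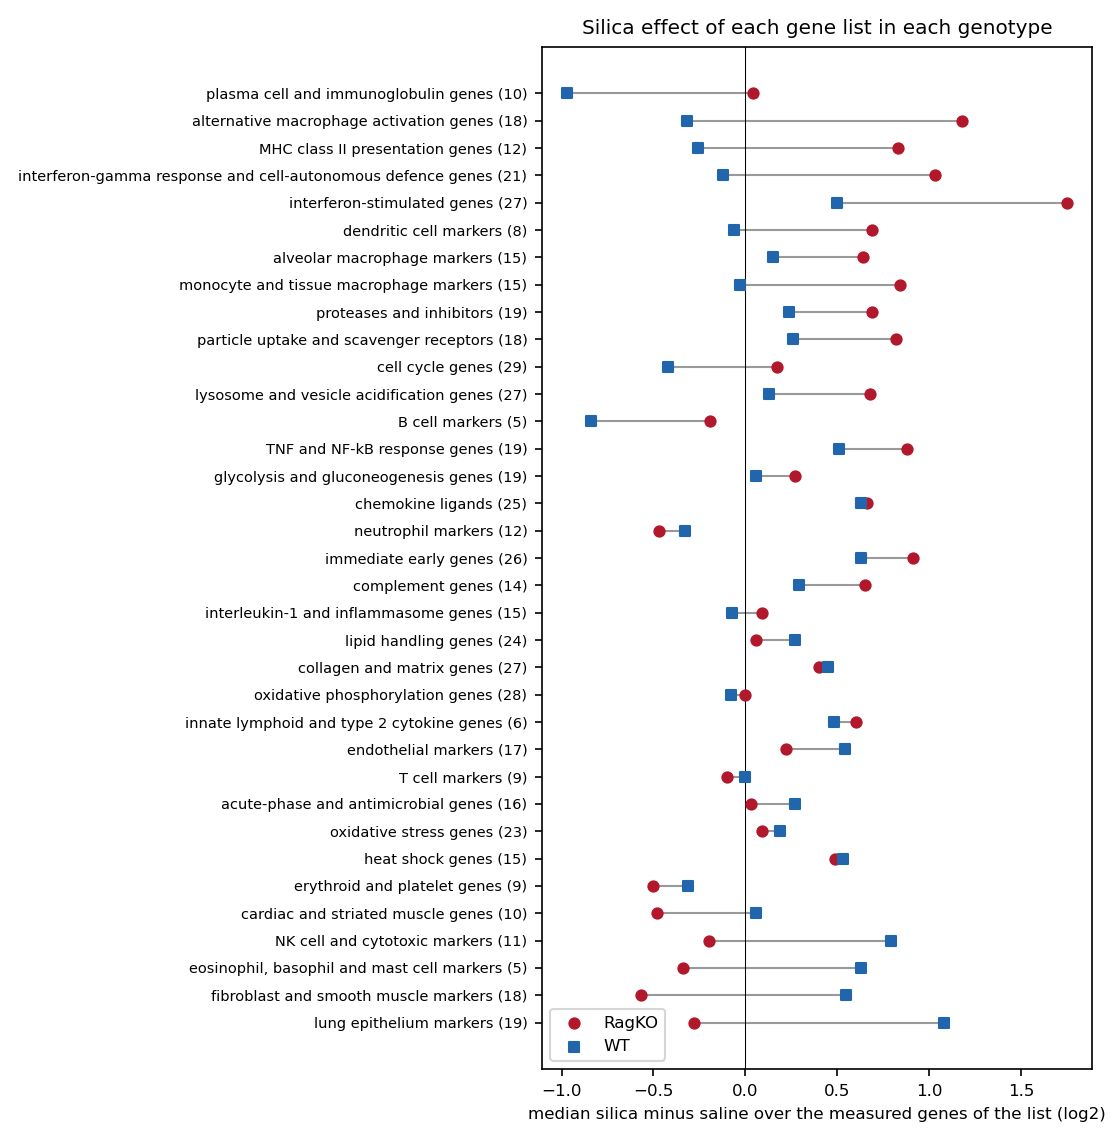
Median silica effect (horizontal axis, log2) over the measured members of each gene list (number in brackets) in RagKO (circles) and WT (squares), ordered by the median response difference. Alternative activation and interferon-gamma response genes had medians of 1.18 and 1.03 in RagKO against -0.32 and -0.12 in WT, and lung epithelium markers -0.28 in RagKO against 1.08 in WT.

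Of 10 measured plasma cell and immunoglobulin genes, 2 rose and 0 fell with silica in RagKO (16.8% and 15.9% of all genes did). In WT 0 rose and 8 fell (11.5% and 8.21% of all genes did). For the response difference, 8 were called positive (80.0%, against 11.0% of all genes) and 0 negative. Of these 8, 6 fell in WT only and 2 were reversed. Mice without Rag1 have no mature B cells, so genes made only by the B lineage had little room to fall in RagKO. Jchain, the joining chain of secreted IgA and IgM, was at -2.91 and -2.92 in RagKO silica, -2.68 and -2.56 in RagKO saline, 0.63 and -0.58 in WT silica, and 3.34 and 3.17 in WT saline. It fell 9.39-fold in WT and was low on all 4 RagKO arrays (response difference 2.94 ± 0.41, SE, adjusted p = 0.000931). Derl3, which exports misfolded proteins from the endoplasmic reticulum, fell 9.46-fold in WT only, and Mzb1, a chaperone of antibody secretion, 3.51-fold in WT only. The variable segments Ighv1-17, Ighv1-77, Ighv14-4 and Igkv6-20 fell between 6.22-fold and 8.23-fold in WT only, and segments of such families can share probe signal. All of these variable segments were below 0 on the 4 RagKO arrays. Xbp1, the transcription factor of secretory cells, was an exception, at 0.51 and 0.61 in RagKO silica, -0.21 and 0.05 in RagKO saline, -0.72 and -0.93 in WT silica, and 0.08 and 0.09 in WT saline, and was reversed. Oosp1 had the largest fall in WT, 14.8-fold, with -0.93 and -1.16 in WT silica against 2.92 and 2.76 in WT saline, and fell 1.37-fold in RagKO. Cxcl13, a chemokine that attracts B cells to lymphoid follicles, fell 3.28-fold in WT only.

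Of 29 measured cell cycle genes, 5 rose and 2 fell with silica in RagKO (16.8% and 15.9% of all genes did). In WT 0 rose and 14 fell (11.5% and 8.21% of all genes did), so the list moved mainly in WT. For the response difference, 17 were called positive (58.6%, against 11.0% of all genes) and 0 negative. By class, 9 of them fell in WT only, 2 rose in RagKO only, 2 were reversed and 4 met none of the class rules. The count was 11 without each of RagKO saline array 1, WT silica array 2, WT saline array 1 and WT saline array 2. Mki67, a protein of dividing cells, was at -1.55 and -1.65 in RagKO silica, -2.33 and -2.15 in RagKO saline, -2.49 and -2.80 in WT silica, and -1.23 and -1.17 in WT saline. It rose 1.56-fold in RagKO and fell 2.72-fold in WT (response difference 2.08 ± 0.18, SE, adjusted p = 0.000111). Ccna2, a cyclin of S phase and mitosis, was reversed with smaller changes, and Top2a, the replication topoisomerase, fell 1.94-fold in WT only.

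Of 11 NK and cytotoxic genes, 2 rose and 5 fell in RagKO (16.8% and 15.9% of all genes did). In WT 6 rose and 0 fell (11.5% and 8.21% of all genes did). In the response difference, 0 were called positive and 5 negative (45.5%, against 12.3% of all genes). The direction was the same without RagKO silica array 1. Gzma, a cytotoxic granule protease, was at 3.77 and 3.12 in RagKO silica, 4.35 and 4.49 in RagKO saline, 5.95 and 5.82 in WT silica, and 4.89 and 4.94 in WT saline. It fell 1.97-fold in RagKO and rose 1.96-fold in WT (response difference -1.95 ± 0.25, SE, adjusted p = 0.000685). Klrb1c, which encodes the NK1.1 antigen against which the antibody was given, was at 1.31 and 0.75 in RagKO silica, 1.87 and 2.01 in RagKO saline, 3.62 and 3.57 in WT silica, and 2.79 and 2.80 in WT saline. Klra8, an activating Ly49 receptor with close paralogs, was reversed in the same direction. Only the RagKO mice received the antibody, so the RagKO change and the antibody cannot be told apart. Of 9 T cell markers, 1 was called positive (Ccr7, a lymph node homing receptor, 1.13 ± 0.21, SE) and 1 negative (Cd28, a costimulatory receptor, -0.56 ± 0.15, SE). These shares of 11.1% each were near the 11.0% and 12.3% of all genes. Cd28 was not called without RagKO saline array 1, WT silica array 2, WT saline array 1 or WT saline array 2. Il4, a cytokine of T helper 2 cells and basophils, rose 1.49-fold in WT only, at 2.71 and 2.40 in RagKO silica, 2.86 and 2.94 in RagKO saline, 2.47 and 2.35 in WT silica, and 1.81 and 1.85 in WT saline.

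Of 19 lung epithelium markers, 1 rose and 5 fell with silica in RagKO (16.8% and 15.9% of all genes did). In WT 13 rose and 1 fell (11.5% and 8.21% of all genes did). In the response difference, 0 were called positive and 15 negative (78.9%, against 12.3% of all genes), with a median silica effect of -0.28 in RagKO and 1.08 in WT. Cyp2a5, a xenobiotic-oxidizing enzyme of airway and liver, had the most negative response difference of all genes. It was at 3.36 and 2.89 in RagKO silica, 4.96 and 5.40 in RagKO saline, 4.23 and 4.82 in WT silica, and 2.75 and 2.80 in WT saline, and so fell 4.16-fold in RagKO and rose 3.35-fold in WT (response difference -3.80 ± 0.31, SE, adjusted p = 8.01e-05). Mal2, a membrane protein of epithelial transport, was at 5.84 and 5.63 in RagKO silica, 6.62 and 6.86 in RagKO saline, 5.54 and 5.71 in WT silica, and 3.02 and 4.14 in WT saline. Krt18, a keratin of simple epithelium, and Cldn18, a tight junction protein of alveoli, were reversed, with response differences of -1.72 ± 0.16 and -1.55 ± 0.18 (SE). Slc34a2, the phosphate transporter of alveolar type 2 cells, rose by 1.73 on the log2 scale in WT only, at 3.95 and 3.67 in RagKO silica, 3.99 and 3.97 in RagKO saline, 2.78 and 3.05 in WT silica, and 1.22 and 1.15 in WT saline. Cdh1, the adhesion protein E-cadherin, rose 2.60-fold in WT only. Sftpc, a surfactant protein gene and fixed epithelial marker, was not called (response difference 0.34, adjusted p = 0.308), and silica lowered it in both genotypes.

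Among the largest responses in WT only was Cfap65, a cilia- and flagella-associated protein, which was at 1.27 and 0.86 in RagKO silica, 0.92 and 1.05 in RagKO saline, 2.83 and 3.49 in WT silica, and 0.59 and 1.01 in WT saline, a 5.14-fold rise in WT (response difference -2.28 ± 0.31, SE, adjusted p = 0.000869). Its WT silica arrays stood above all 6 others. Mycbpap and Cdhr4 rose 3.51-fold and 3.29-fold in WT only. Slc6a2, the noradrenaline transporter, rose 4.04-fold in WT only.

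Fibroblast and smooth muscle markers followed the epithelial ones, with 0 of 18 called positive and 12 negative (66.7%, against 12.3% of all genes). In RagKO 10 fell (15.9% of all genes did), and in WT 12 rose (11.5%). Myh11, the smooth muscle myosin, was at 4.15 and 3.91 in RagKO silica, 4.77 and 4.84 in RagKO saline, 2.93 and 3.04 in WT silica, and 1.73 and 1.83 in WT saline (response difference -1.97 ± 0.17, SE, adjusted p = 9.92e-05). Lum, a collagen-binding proteoglycan, was at 3.93 and 3.88 in RagKO silica, 4.92 and 4.91 in RagKO saline, 4.73 and 4.26 in WT silica, and 3.45 and 3.30 in WT saline. It was higher in RagKO than in WT after saline and lower after silica. Fbln5, an elastic fibre protein, was reversed with a response difference of -2.37 ± 0.19 (SE), and Aspn, another small proteoglycan, fell 3.16-fold in RagKO only. Collagen and matrix genes as a list did not lean either way, with 4 of 27 called in each direction (14.8%, near the 11.0% and 12.3% of all genes). Col3a1, a fibrillar collagen, rose in both genotypes and further in RagKO, 3.70-fold against 1.57-fold in WT. Col1a1 rose in both, 1.79-fold in RagKO and 1.73-fold in WT, with a response difference of 0.05 (95% interval -0.63 to 0.74).

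Detoxifying and antioxidant genes were called more often in the negative direction. Of 23 oxidative stress genes, 3 were called positive (13.0%, against 11.0% of all genes) and 9 negative (39.1%, against 12.3%). Gsta3, a glutathione transferase, was at 1.75 and 1.45 in RagKO silica, 3.70 and 3.64 in RagKO saline, 0.05 and 0.66 in WT silica, and 0.04 and -0.09 in WT saline. It fell 4.20-fold in RagKO and stayed above WT after silica (response difference -2.45 ± 0.26, SE, adjusted p = 0.00023). Nqo1, a quinone reductase, was at -1.29 and -1.60 in RagKO silica, 0.03 and 0.72 in RagKO saline, -1.74 and -1.86 in WT silica, and -1.77 and -1.93 in WT saline. Its 3.52-fold fall brought RagKO near the WT level, and the genotype difference was called after saline only. Gstm1, Gstm2, Cat (catalase) and Gpx2 (a glutathione peroxidase) fell in RagKO and rose in WT. Pon1, a lipid-hydrolysing esterase, fell 5.01-fold in RagKO, with 3.83 and 3.96 in RagKO silica against 6.10 and 6.35 in RagKO saline, and 3.74 and 4.79 in WT silica against 3.73 and 3.57 in WT saline. Maob, a mitochondrial amine oxidase, was reversed almost evenly, 2.83-fold down in RagKO and 2.78-fold up in WT. Many of these enzymes are made by airway epithelium, whose markers moved with them, and the part of epithelial RNA was not tested.

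Of the cardiac and striated muscle genes, 6 of 10 fell and 0 rose in RagKO, with 1 called positive and 6 negative. Myl7, the atrial myosin light chain, was at 1.66 and 1.74 in RagKO silica, 4.00 and 3.96 in RagKO saline, 2.30 and 2.18 in WT silica, and 2.41 and 2.67 in WT saline, a 4.84-fold fall in RagKO only. Myh7, a myosin heavy chain of heart and slow muscle, instead rose 3.92-fold in WT only. Lungs were cut from the heart before digestion, and the fixed cardiac markers (Actc1 and Tnnt2) had a mean of 0.52 and 0.49 in RagKO silica, 1.45 and 1.35 in RagKO saline, -0.23 and -0.36 in WT silica, and -0.51 and -0.44 in WT saline. The part of heart tissue was not tested. Among endothelial markers 1 of 17 was called positive (5.9%, against 11.0% of all genes) and 4 negative (23.5%, against 12.3%). The negative calls were led by Emcn, an endothelial sialomucin, which fell 2.09-fold in RagKO and rose 1.64-fold in WT. Esm1, a proteoglycan secreted by endothelium, was also reversed, with a response difference of -2.78 ± 0.26 (SE).

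**Figure D5:**
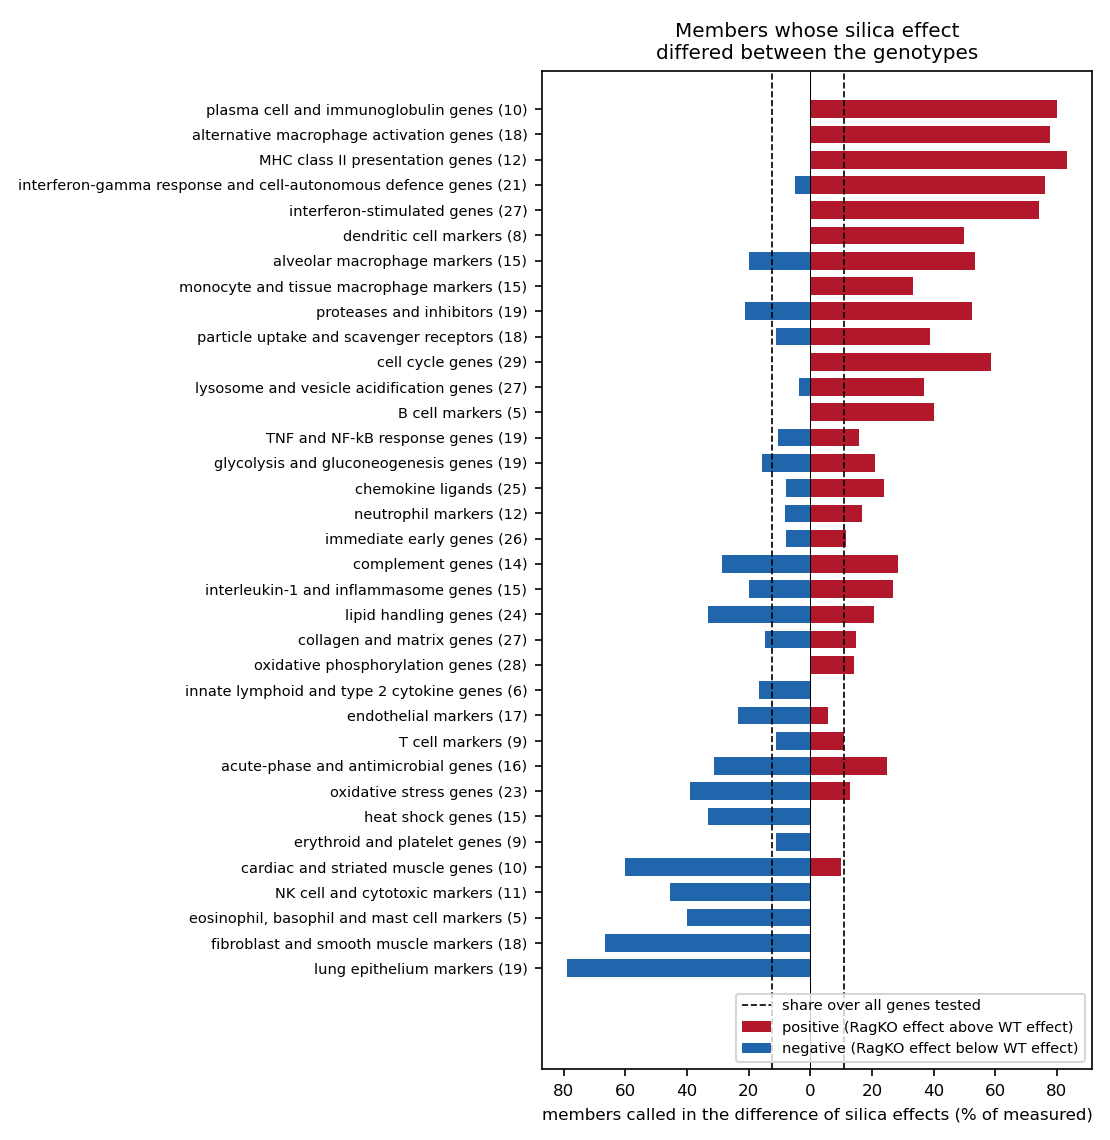
Share of each list's measured members (number in brackets) whose response difference was called, positive to the right and negative to the left (horizontal axis, percent), with the shares over all genes tested, 11.0% and 12.3%, as dashed lines. Lists of alternative activation, interferon response and class II presentation reached 74.1% or more on the positive side, and lung epithelium markers 78.9% on the negative side.

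Among cytokines and chemokines, Il1a, an alarm cytokine, was at 3.42 and 3.81 in RagKO silica, 1.25 and 1.46 in RagKO saline, 2.28 and 1.95 in WT silica, and 1.49 and 1.45 in WT saline, and rose 4.80-fold in RagKO and 1.56-fold in WT (response difference 1.62 ± 0.22, SE, adjusted p = 0.000887). Ccl7, a chemokine for monocytes, rose 6.92-fold in RagKO and 2.29-fold in WT. Its response difference of 1.59 was not called without RagKO silica array 2 (1.20, adjusted p = 0.0565), nor in 4 other alternatives, at adjusted p up to 0.0765. Cxcl1, a chemokine for neutrophils, rose further in WT, 2.56-fold in RagKO against 4.65-fold in WT, but its response difference of -0.86 (adjusted p = 0.0451) was not called without RagKO silica array 1 (-0.66, adjusted p = 0.137), nor in 7 other alternatives, at adjusted p up to 0.147. Il6 rose 2.33-fold in WT only, and Il33, an epithelial alarm cytokine, 2.10-fold in WT only. The immediate early list stayed near the background, with 3 of 26 called positive (11.5%) and 2 negative (7.7%), and so did the TNF and NF-kB list, with 3 of 19 positive (15.8%) and 2 negative (10.5%). Tnf, the cytokine of that pathway, rose in both genotypes, 2.13-fold in RagKO and 1.59-fold in WT, with a response difference of 0.42 (95% interval -0.09 to 0.94) that was not called. Without WT silica array 1 the Tnf difference was 0.68 and was called. Lcn2, an iron-sequestering acute-phase protein, rose 3.09-fold in RagKO and 2.14-fold in WT (response difference 0.54, adjusted p = 0.154). Without WT silica array 1 its response difference was 0.79 and was called. Il1b and the inflammasome sensor Nlrp3 were not called, with adjusted p values of 0.215 and 0.0557. The response difference of Nlrp3 was 0.46, and without RagKO silica array 1 it was 0.56 and was called. After quantile normalization it was 0.48 and was called (limma, adjusted p = 0.0449). Casp1, the protease that activates Il1b protein, rose 1.65-fold in RagKO only. Neutrophil markers also stayed near the background, with 2 of 12 called positive (16.7%) and 1 negative (8.3%).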

How the data were processed

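Dual-colour Agilent arrays compared leukocyte RNA (Cy5) with universal mouse reference RNA (Cy3), per the labels. The deposited values are log10 ratios per probe. The base was inferred from the values, since the highest ratio is 736.6-fold as log10 and 7.297-fold as log2. The authors' background correction, dye normalization and centring were not stated in any source used here, so array signal over background is unknown. Of 16251 probes, 14716 were complete over the 8 arrays and 14488 had 1 gene symbol in the platform annotation (10 had several, 1753 none). Ratios were multiplied by 3.3219 to give log2, and probes of a gene were averaged, leaving 11597 genes, 1478 with more than 1 probe.

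Group means over the 8 arrays (4 residual degrees of freedom) were fitted with limma 3.58.1 in R 4.3.3, with Benjamini-Hochberg adjustment. Tables were made in Python 3.11.15 with pandas 2.3.3 and numpy 2.4.6. The fit was tested on simulated data. Precision is limited by 2 arrays per group, and p-values measure the spread between these arrays. Replicate numbers did not pair the arrays: deviations of same-numbered arrays correlated between -0.0728 and 0.1111.

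Named genes were the 10 largest response differences in each direction, the 8 largest of each response class, the 4 called members with the smallest p of each of 36 lists (2 by smallest p where none was called), and 25 preselected genes, 1 without a value. RIKEN, predicted and accession-only symbols were passed over. Members and lists were chosen with earlier results of these data known. Alternatives were median centring, quantile normalization, probes with missing values, the highest probe per gene, a filter on low ratios, trended robust variances, a replicate block, other limits and leaving out each array. Promoters are RefSeq's, and Rag1 was not analysed here.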

Additional observations from a re-analysis of the deposited data

Results flagged for a closer look

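The tested difference between the silica effects of RagKO and WT was largest in the positive direction for Fbp1 (7.96), Arg1 (5.72), Ccl24 (5.65), Clca1 (4.23), Saa3 (4.14), Ccl8 (3.57), Oosp1 (3.44), Chil3 (3.39), Inhba (3.26) and Jchain (2.94), all on the log2 scale. In the negative direction it was largest for Cyp2a5 (-3.80), Mal2 (-3.05), Maob (-2.98), Pon1 (-2.94), Bex2 (-2.87), Cytl1 (-2.84), Esm1 (-2.78), Gpx2 (-2.70), Ldhb (-2.69) and Krt23 (-2.66). Genes with a missing value on some array were outside the main comparison. When they were fitted on the values present, 849 genes were added and 105 of them (12.4%) were called.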

How the results depend on the processing

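Calls remained in the same direction for 98.0% of 2697 genes after median centring, 96.6% after quantile normalization, 94.1% with missing values kept, 95.3% with the highest probe, all of 2687 genes left after the filter on low ratios, 96.6% with trended robust variances and 94.4% with the replicate block (1259 positive, 1410 negative). At an adjusted p below 0.01, 626 genes were positive and 733 negative, with 35 reversed and rising in RagKO, 132 reversed and falling, 357 and 228 rising and falling in RagKO only, 179 and 113 in WT only, and 7 and 3 in the same direction but larger in RagKO and in WT. With a limit of 0.25, 373 genes fell in RagKO only. Fewer calls at a stricter threshold follow from its construction.

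Leaving out each array in turn kept 59.8% to 81.4% of calls, and counts ranged from 755 to 1239 (positive), 890 to 1313 (negative), 44 to 142 and 162 to 348 (reversed, rising and falling in RagKO), 443 to 698 and 320 to 539 (RagKO only), 184 to 414 and 114 to 267 (WT only), and 6 to 79 and 6 to 36 (same direction). Genotype differences ranged from 559 to 993 (lost), 271 to 467 (gained), 173 to 295 (changed sign) and 590 to 974 (kept). Silica effects ranged from 2380 to 3842 in RagKO and 861 to 2389 in WT, and genotype effects from 5736 to 7106 after silica and 6417 to 7790 after saline. Members called ranged from 12 to 14 (alternative activation), 13 to 23 and 14 to 18 (interferon lists), 9 to 11 (class II), 8 to 14 (lysosome), 7 to 8 (plasma cell), 11 to 17 (cell cycle), 5 to 8 (NK), 12 to 15 (epithelium), 11 to 13 (fibroblast) and 8 to 9 (oxidative stress). The cause was not tested. Itgax turned to -0.07 with missing values kept (adjusted p = 0.947), and Xist to -0.70 without RagKO silica array 2 (adjusted p = 0.0417), against 3.03 without RagKO silica array 1.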

Other observations

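Among the genes with missing values, which were named after their values were seen, Prg2, the eosinophil major basic protein, was at 0.84 and 1.90 in RagKO silica, at 0.42 on the 1 RagKO saline array with a value, at 0.75 on 1 WT silica array, and at 2.66 and 2.84 in WT saline. Its response difference was 2.95 ± 0.51 (SE, limma, adjusted p = 0.00551, 6 arrays). Il4i1, an amino acid oxidase induced by interleukin-4, was at 2.28 and 2.03 in RagKO silica, 0.21 on 1 RagKO saline array, 2.72 and 2.23 in WT silica, and 3.15 and 3.16 in WT saline, a response difference of 2.63 ± 0.27 (SE, limma, adjusted p = 0.000376, 7 arrays). Dnah5, a dynein of motile cilia, had a response difference of -2.12 ± 0.57 (SE, limma, adjusted p = 0.0284, 7 arrays). The missing arrays leave 1 array in some of these groups, which is assumed to vary like the others.

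Counts called in the response difference follow for further lists, several of which had calls in 1 direction only. Over all genes 11.0% were called positive and 12.3% negative. Of 15 heat shock genes, 0 were called positive and 5 negative (33.3%), of 24 lipid handling genes 5 positive and 8 negative, and of 25 chemokine ligands 6 positive and 2 negative. Monocyte and tissue macrophage markers had 5 of 15 called positive (33.3%) and 0 negative, and dendritic cell markers 4 of 8 and 0. Alveolar macrophage markers, described above, had 8 of 15 called positive and 3 negative. B cell markers had 2 of 5 called positive, each by a fall in WT only. Interleukin-1 and inflammasome genes had 4 of 15 positive and 3 negative, glycolysis genes 4 of 19 positive and 3 negative, and oxidative phosphorylation genes 4 of 28 positive and 0 negative. Innate lymphoid and type 2 cytokine genes had 1 of 6 called negative, eosinophil, basophil and mast cell markers 2 of 5, and erythroid and platelet genes 1 of 9. Sex-linked transcripts had 0 of 3 called by limma.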
